A study of Homo sapiens with 20 samples.

Results

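Prexasertib at 2 nM was set directly against low-dose Dyngo-4a at 1 µM, each given alone for 24 h to IMR-32 cells, an established MYCN-amplified neuroblastoma line. The members were the 4 libraries labelled as single low-dose prexasertib and the 4 labelled as single low-dose Dyngo-4a, 8 of the 20 samples of the series, and the 13729 of 58787 genes that passed a filter on low counts. The other groups, 4 libraries each, were cells given the vehicle DMSO, Dyngo-4a at 2.26 µM (the high dose) or both agents together; the labels give no doses for the combination. All samples are labelled as the same wild-type line and as batch 1, and all cells had 24 h with the agent. The labels number replicates 1 to 4 in each group but do not say whether they were separate cultures, so the p-values measure the spread between these libraries, which may be technical.

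Prexasertib is an ATP-competitive inhibitor of the checkpoint kinases CHK1 and, less strongly, CHK2. CHK1 is activated by ATR at stalled replication forks, restrains origin firing and holds CDC25 phosphatases and thus mitotic entry in check, and neuroblastoma cells with high MYCN are known for their dependence on it. Dyngo-4a blocks the GTPase activity of dynamins, the enzymes that pinch endocytic vesicles off the plasma membrane, among them the vesicles that carry transferrin-bound iron into the cell. The comparison asks how the 2 low-dose single treatments, the arms of the combination, differed from each other.

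Library totals in the 2 groups ran from 4491004 to 6537843 counts, with 18937 to 19402 genes detected, and a count of 0 allowed up to 3 counts, or 0.459 to 0.668 CPM (counts per 1e6 of the library; counting error only). All levels below are CPM after scaling for library composition. The markers of sympathetic neuroblasts summed to 9680 to 10500 CPM in the prexasertib libraries and 9350 to 10100 CPM in the low-dose libraries, whereas the endothelial, leukocyte, and astrocyte and oligodendrocyte lists each stayed at or under 3.26 CPM, the Schwann cell list at or under 6.12 and the epithelial list at or under 18, and SOX10, CD3E, TEK and OLIG1 had no count in any library. The mesenchymal neuroblastoma list, with VIM and TWIST1 among its members, summed to 641 to 794 CPM in the prexasertib libraries and 645 to 768 CPM in the low-dose libraries. The nuclear RNA MALAT1 took 1.42% ± 0.36 (SD, n = 4) of the counts in the prexasertib group and 1.56% ± 0.433 (SD, n = 4) in the low-dose group. In a principal component analysis of the 8 libraries the first component (23% of the variance) separated replicates 1 and 3 from replicates 2 and 4 in both groups, and the second (18.4%) separated the treatments.

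The 2 treatments differed at few genes. At an adjusted p of 0.05 (edgeR's quasi-likelihood test, Benjamini-Hochberg over all 13729 genes), 21 genes were higher in prexasertib than in low-dose Dyngo-4a, 0.153% of those tested, and 36 were lower, 0.262%. The genes higher in prexasertib were led by GCLM and HMOX1, antioxidant genes, with a heat shock chaperone (HSPA1B), a proteasome subunit (PSMC1) and mitotic regulators (CDC20, PLK1). The genes lower in prexasertib, that is, higher in low-dose Dyngo-4a, were led by FAM162A, TXNIP and ALDOC and included glycolytic enzymes. The called differences ran from -2.07 to 1.69 on the log2 scale, and 6 genes higher and 11 lower reached a 2-fold difference. All 21 genes higher in prexasertib had its 4 libraries above the 4 low-dose libraries, which 2.97% of all tested genes had, and 35 of the 36 lower genes had them all below, against 3.12% of all tested genes. COLEC12 was the exception. Of all tested genes 48.5% had a log2 fold change above 0 and 51.5% below.

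Deviations from the group mean correlated at 0.132 to 0.214 between same-numbered libraries of the 2 groups, and at -0.177 to 0.138 between libraries of different number. In a fit that adds the replicate number as a block the calls numbered 182 higher (1.33%) and 199 lower (1.45%), among them all 57 called without it. Without 1 library the count was 26 (prexasertib replicate 1), 36 (replicate 2), 24 (replicate 3), 31 (low-dose Dyngo-4a replicate 1), 28 (replicate 3) or 37 (replicate 4), and 44 without either of the remaining ones. GCLM, FAM162A, TXNIP, HMOX1, ALDOC, AK4, CHRNA3, ADAMTSL1, PSMC1, PGK1, HSPA1B, LDHA, THRB, PDK1, SEMA5A and the non-coding ENSG00000248540 stayed called whichever of the 8 libraries was left out.

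**Figure D1:**
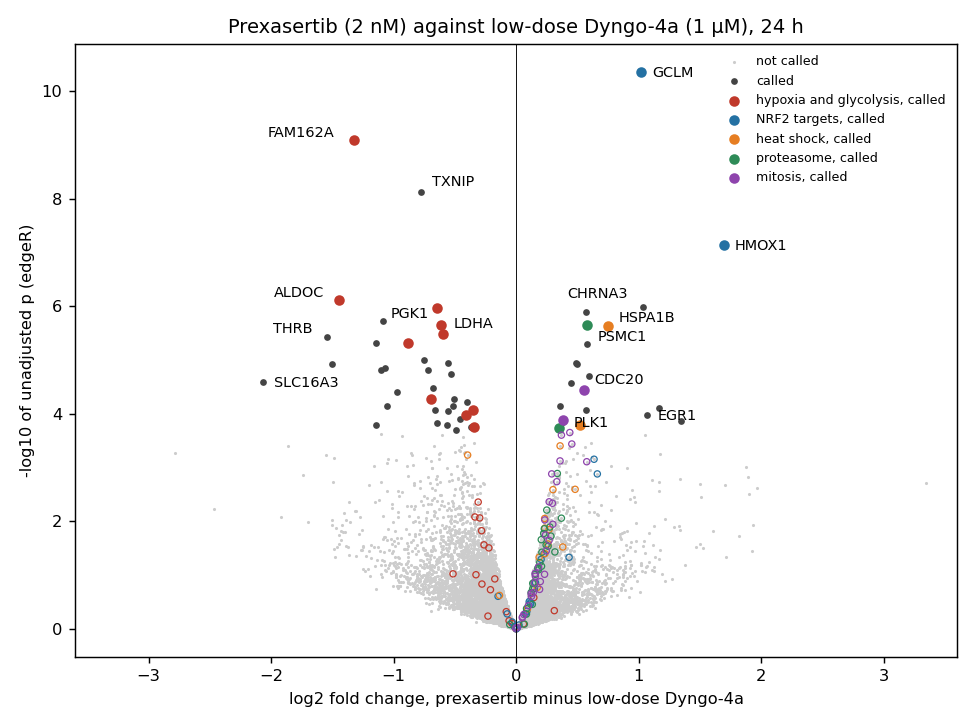
Each point is 1 of 13729 tested genes, placed by its log2 fold change (prexasertib minus low-dose Dyngo-4a, x axis) and the -log10 of its unadjusted edgeR p (y axis); large coloured points are called genes of 5 lists and open circles their uncalled members. GCLM and HMOX1 stand apart on the right, and the called hypoxia and glycolysis genes all lie on the left.

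Each agent was also set against DMSO. Prexasertib at 2 nM gave 0 calls (0%), with 518 genes at an unadjusted p under 0.05; DESeq2 called 6 genes, limma-voom 0 and the replicate block 23. Low-dose Dyngo-4a gave 25 genes higher than DMSO (0.182%) and 11 lower (0.0801%), and 260 in all with the block. These 2 comparisons share the DMSO libraries with each other and a treated group with the direct comparison, so they are given side by side as levels. The DMSO mean lay nearer to the prexasertib mean than to the low-dose mean in 46 of the 57 called genes (80.7%), against 56% of all tested genes. FAM162A, for example, was at 30.4 CPM in DMSO, 25.3 in prexasertib and 63.4 in low-dose Dyngo-4a, whereas EGR1 was at 3.98, 10 and 4.74 CPM.

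**Figure D2:**
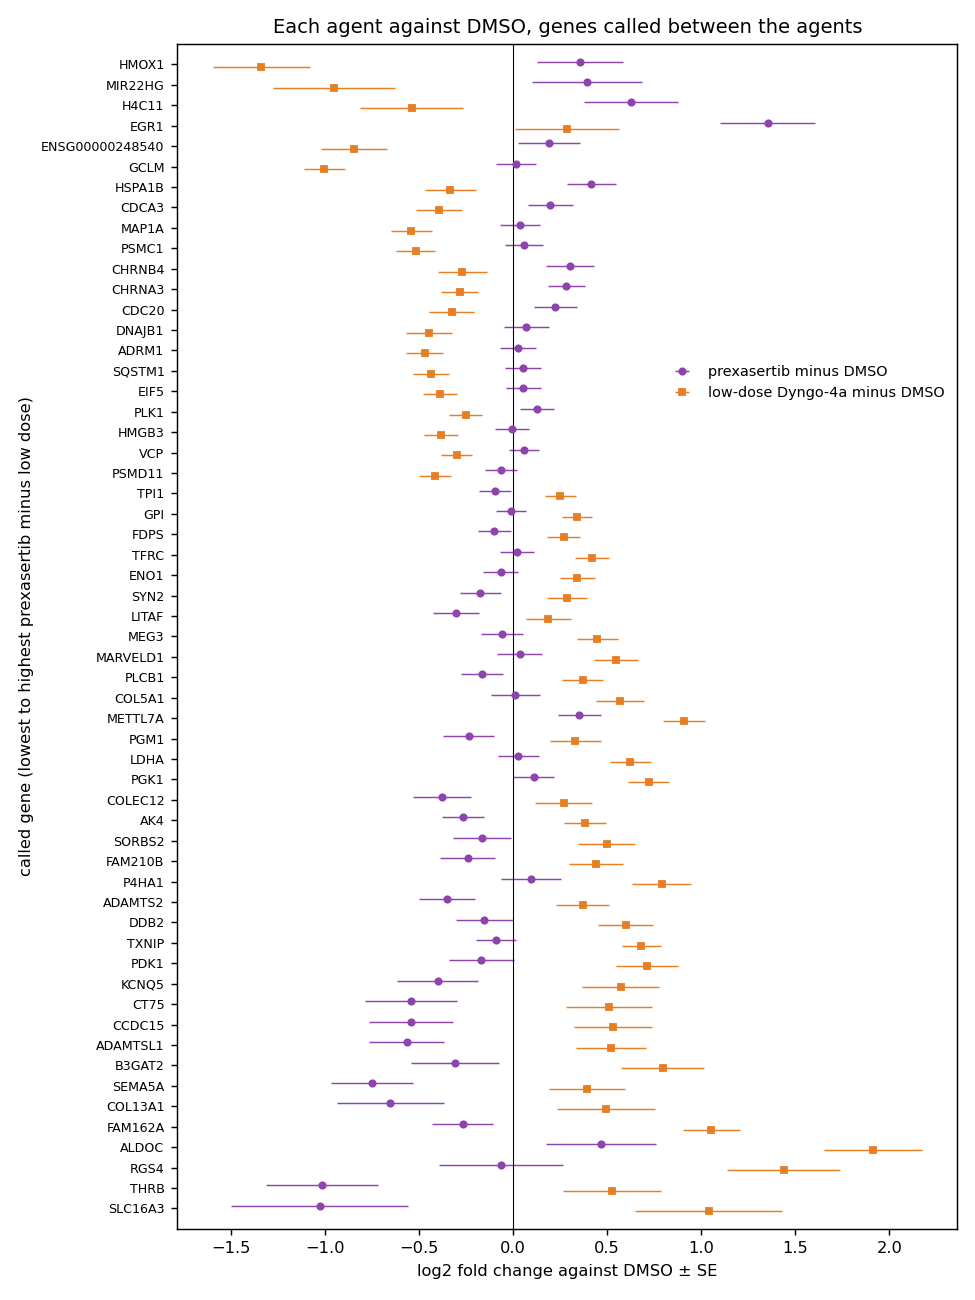
The log2 fold change against DMSO with its standard error (x axis) for prexasertib (circles) and low-dose Dyngo-4a (squares) at each of the 57 genes called between the 2 agents (y axis, ordered by the difference). Most squares lie away from 0 and most circles near it, with EGR1, THRB and SEMA5A among the genes where the prexasertib value was the larger in size; the 2 values share the DMSO libraries.

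The glycolytic and hypoxia-responsive genes made up the largest group of called genes. Hypoxia-inducible factors bind a short core motif, ACGTG, and switch on glucose uptake, glycolysis, and the kinases and hydroxylases that adapt cells to low oxygen. Of the list's 30 tested members 10 were lower in prexasertib, as 0.262% of all tested genes were, and 0 higher. Of the 30, 27 had a log2 fold change below 0, as 51.5% of all tested genes had. The list median was -0.29, against -0.01 for all tested genes. The list was drawn up with earlier results of these data known. At LDHA, PGK1 and FAM162A, as at ALDOC and PDK1, the low-dose libraries separated from both prexasertib and DMSO. The stretches before LDHA, PGK1 and FAM162A are shown as examples that hold the motif. They are the 250 bases before the RefSeq gene start (GRCh38.p14), 5′ to 3′ along the gene, with ACGTG on either strand in capitals (CACGT where it lies on the opposite strand). LDHA, on the plus strand at chr11:18394313-18394562, holds 5 matches at 3 places, since the palindrome CACGTG counts on both strands, PGK1, plus strand, chrX:78103998-78104247, holds 2, and FAM162A, plus strand, chr3:122383932-122384181, holds 1 that starts 84 bases before the gene.
LDHA: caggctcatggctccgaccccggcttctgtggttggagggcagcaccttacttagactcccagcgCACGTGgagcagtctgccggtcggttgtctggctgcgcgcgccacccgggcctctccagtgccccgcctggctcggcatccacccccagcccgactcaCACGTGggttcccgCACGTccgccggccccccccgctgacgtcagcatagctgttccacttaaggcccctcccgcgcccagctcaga
PGK1: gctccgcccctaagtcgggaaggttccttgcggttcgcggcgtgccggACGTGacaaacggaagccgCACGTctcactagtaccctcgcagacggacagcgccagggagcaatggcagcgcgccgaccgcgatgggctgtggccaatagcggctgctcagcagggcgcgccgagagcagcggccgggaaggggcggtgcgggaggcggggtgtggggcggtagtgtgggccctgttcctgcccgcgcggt
FAM162A: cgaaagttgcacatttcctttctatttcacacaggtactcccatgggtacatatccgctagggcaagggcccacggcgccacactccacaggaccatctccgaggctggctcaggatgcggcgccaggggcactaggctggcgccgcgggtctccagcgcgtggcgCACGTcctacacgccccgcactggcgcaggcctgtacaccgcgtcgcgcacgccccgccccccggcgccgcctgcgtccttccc

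ACGTG was present in 14 of the 26 tested hypoxia and glycolysis genes with a RefSeq promoter, and in 7 of the 10 called ones (AK4, ALDOC, FAM162A, GPI, LDHA, P4HA1 and PGK1), while 18.5% of 35116 RefSeq promoters of the same length held it. A match describes these letters only and is not evidence of binding.

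FAM162A, a mitochondrial protein gene induced by hypoxia (chr3:122384176-122412334), had 17.8, 34.6, 25.2 and 23.7 CPM in prexasertib replicates 1 to 4 and 55.5, 67.7, 73.0 and 57.4 CPM in the low-dose replicates. The DMSO libraries, at 27.0, 31.8, 23.0 and 39.9 CPM, overlapped the prexasertib ones and lay below every low-dose library. The log2 fold change was -1.32 ± 0.15 (SE; adjusted p = 5.68e-06). Its exons share positions with those of WDR5B on the other strand, as 28 of the 57 called genes do with some gene, and reads of such pairs cannot be told apart here because the labels give no strand setting for the counting.

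Among the glycolytic enzymes, PGK1 (phosphoglycerate kinase) had 142, 176, 169 and 191 CPM in prexasertib and 240, 245, 257 and 292 CPM in low-dose Dyngo-4a. The difference was -0.61 ± 0.11 on the log2 scale (adjusted p = 0.00265), with DMSO at 157 ± 19.7 CPM (SD, n = 4). LDHA, which reduces pyruvate to lactate and was named after its values were seen, had 307, 353, 371 and 415 CPM in prexasertib and 486, 549, 519 and 630 CPM in the low-dose libraries. Its log2 fold change was -0.60 ± 0.11 (adjusted p = 0.00342), and the groups did not overlap for either enzyme. ALDOC, the brain-type aldolase, was at 3.89, 4.10, 3.37 and 6.42 CPM in prexasertib and 11.4, 8.84, 15.2 and 14.2 CPM in low-dose Dyngo-4a (-1.45 ± 0.24, adjusted p = 0.00214). It was low in DMSO too, at 3.24 ± 0.598 CPM (SD, n = 4).

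AK4, a mitochondrial adenylate kinase, and PDK1, the kinase that shuts pyruvate out of the citric acid cycle, were lower in prexasertib, with log2 fold changes of -0.65 ± 0.11 (adjusted p = 0.00214) and -0.88 ± 0.16 (adjusted p = 0.00404). P4HA1, a collagen prolyl hydroxylase, and GPI, ENO1 and TPI1, all glycolytic, were named after their values were seen. They had smaller or less even differences of -0.70, -0.35, -0.41 and -0.35, with adjusted p from 0.0213 to 0.0446. P4HA1 lost its call without any 1 of prexasertib replicates 1, 2 and 4 or low-dose replicates 1 to 3 (adjusted p up to 0.124). GPI did so without any library but prexasertib replicate 2 (up to 0.135), ENO1 without replicates 1 to 3 of either group (up to 0.144), and TPI1 without each of the 8 (up to 0.17). GPI was also uncalled with no low-count filter (0.103), and TPI1 with relative log size factors, no filter or a filter at 1 CPM in 4 libraries (0.0535, 0.097 and 0.0596). The list kept 6 to 8 called members in the fits without 1 library, 6 of them without prexasertib replicate 1 or without low-dose replicate 1, 2 or 3. It had 14 with the replicate block, all lower, as 1.45% of all tested genes were. Uncalled members included the glucose transporter SLC2A1 at -0.26 (adjusted p = 0.442) and VEGFA at -0.28 (adjusted p = 0.697). SLC16A3, the lactate exporter, was not on the list and was named after its values were seen. It had the largest negative difference of all called genes, -2.07 ± 0.43 (adjusted p = 0.0124), at 0.614 to 1.39 CPM in prexasertib and 2.73 to 5.18 in low-dose Dyngo-4a. The prexasertib levels were close to what 3 counts give. The call was lost without prexasertib replicate 1, 2 or 4 or low-dose replicate 1 (adjusted p up to 0.0717), as it was in limma-voom (0.0637).

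The other arms give these genes a range. FAM162A averaged 65.4 ± 7.46 CPM (SD, n = 4) in the combination and 83.7 ± 6.76 in high-dose Dyngo-4a, and ALDOC 13.2 ± 2.63 and 24.9 ± 6.39 CPM. LDHA averaged 481 ± 83.9 CPM in the combination and 381 ± 33.4 CPM in the high dose, so its mean was highest in the low-dose arm. The low-dose and combination libraries overlapped for LDHA, and the difference between these arms was not tested.

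**Figure D3:**
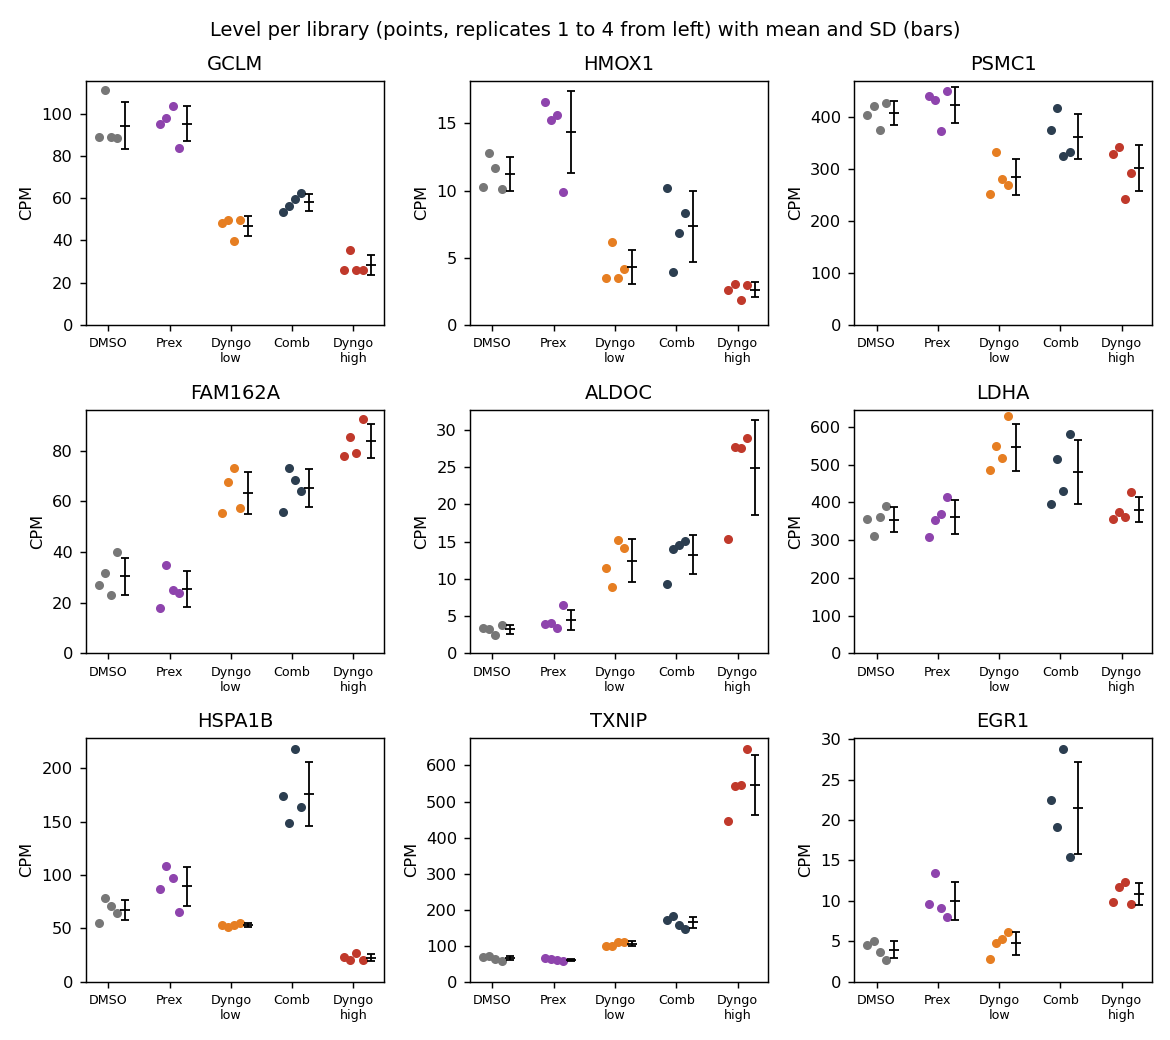
CPM (y axis) of 9 genes in every library of the 5 groups (x axis; points are replicates 1 to 4 from left, bars the mean and SD of 4). GCLM, HMOX1 and PSMC1 in the low-dose group lie below DMSO and prexasertib, FAM162A, ALDOC and LDHA lie above both, and EGR1 is higher in prexasertib than in DMSO and the low dose.

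The clearest differences in the other direction were at 2 antioxidant genes, GCLM and HMOX1. NRF2 is the transcription factor that KEAP1 holds in check until electrophiles or oxidants free it, after which it drives glutathione synthesis, heme breakdown and thioredoxin recycling through antioxidant response elements. Of the 20 tested members of the NRF2 list 2, GCLM and HMOX1, were higher in prexasertib (0.153% of all tested genes were) and 0 lower. With the replicate block 4 were higher, as 1.33% of all tested genes were. Of the 20, 15 lay above 0 (48.5% of all tested genes did), with a median of 0.11. The heat shock, mitosis and proteasome lists had larger medians, at 0.25, 0.23 and 0.20, also with 2 calls each. GCLM encodes the modifier subunit of the enzyme that commits cysteine to glutathione (chr1:93885205-93909456). The 250 bases before its RefSeq start, minus strand, chr1:93909431-93909680, are shown because its difference had the smallest p in the comparison. They hold the element core TGACNNNGC once, on the opposite strand (in capitals), starting 34 bases before the gene.
GCLM: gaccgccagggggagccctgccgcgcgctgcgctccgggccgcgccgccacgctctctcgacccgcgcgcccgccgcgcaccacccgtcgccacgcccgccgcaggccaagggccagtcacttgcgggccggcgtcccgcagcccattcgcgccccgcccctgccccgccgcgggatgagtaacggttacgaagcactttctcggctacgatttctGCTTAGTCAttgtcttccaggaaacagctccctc

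That core occurs on either strand in 10.9% of the 35116 promoters and in 4 of the 13 tested NRF2 genes with one. GCLM had 95.2, 98.0, 104 and 84.0 CPM in prexasertib replicates 1 to 4 and 48.1, 49.9, 39.6 and 49.8 CPM in the low-dose replicates. The groups lay far apart and the DMSO libraries, at 88.4 to 111 CPM, fell with prexasertib. The log2 fold change was 1.02 ± 0.11 (95% interval 0.79 to 1.24, adjusted p = 6.06e-07). The level was 58 ± 3.82 CPM (SD, n = 4) in the combination and 28.3 ± 4.68 CPM in high-dose Dyngo-4a, both under DMSO (adjusted p = 2.49e-05 and 1.99e-13).

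HMOX1, the heme oxygenase (chr22:35380361-35394214), had 16.6, 15.3, 15.7 and 9.87 CPM in prexasertib and 3.45, 6.15, 3.49 and 4.18 CPM in low-dose Dyngo-4a, with DMSO at 10.1 to 12.8 CPM. No low-dose library reached the lowest prexasertib library. It had the largest positive difference of all called genes, 1.69 ± 0.25 (adjusted p = 0.000247). SLC7A11, the cystine importer, and NQO1, a quinone reductase, had values of 0.63 ± 0.17 (adjusted p = 0.0983) and 0.66 ± 0.19 (adjusted p = 0.141), and passed with the replicate block (0.00567 and 0.0122). ME1, a source of NADPH, was at 0.43 (adjusted p = 0.517). GCLC, the catalytic partner of GCLM, was at 0.12 (adjusted p = 0.832), TXNRD1 at 0.23 (adjusted p = 0.498), and NFE2L2, which encodes NRF2 itself, at 0.07 (adjusted p = 0.907).

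Protein quality control genes were higher in prexasertib than in low-dose Dyngo-4a at a few members, with the rest of their lists tilted the same way. Heat shock factor binds paired GAA units and raises the chaperones that refold damaged proteins. Of 16 tested heat shock genes 2 were called higher (0.153% of all tested genes were) and 0 lower. The median was 0.25, and 14 had a log2 fold change above 0, as 48.5% of all tested genes had. HSPA1B, an inducible HSP70 gene (chr6:31827735-31830255), had 87.2, 108, 97.5 and 65.0 CPM in prexasertib and 53.3, 51.0, 52.9 and 55.2 CPM in the low-dose libraries, and did not overlap. Its difference was 0.75 ± 0.13 (adjusted p = 0.00265). Reads of HSPA1B and its near-identical copy HSPA1A may be shared between them, so its level is uncertain. In the combination it averaged 176 ± 29.9 CPM (SD, n = 4), and in high-dose Dyngo-4a 22.5 ± 3.21 CPM, either side of DMSO at 67.1 ± 9.71 CPM. Its 250 bases, plus strand, chr6:31827488-31827737, are shown with the core GAANNTTC in capitals, found once, 105 bases before the gene, and present in 5.78% of all promoters and in 5 of the 15 tested heat shock genes with one.
HSPA1B: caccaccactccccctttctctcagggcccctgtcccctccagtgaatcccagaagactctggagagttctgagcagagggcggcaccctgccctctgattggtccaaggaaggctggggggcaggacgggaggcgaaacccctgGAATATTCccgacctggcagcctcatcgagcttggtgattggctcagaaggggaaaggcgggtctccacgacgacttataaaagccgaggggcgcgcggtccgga

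DNAJB1, the HSP40 partner of HSP70, was higher by 0.52 ± 0.12 (adjusted p = 0.0422) and lost its call without prexasertib replicate 1, 2 or 3 or low-dose replicate 3 or 4 (up to 0.215) and with library sizes alone (0.0826). HSPH1, a nucleotide exchange factor for HSP70, had 0.36 ± 0.09 (adjusted p = 0.0758) and HSPA4L, a relative of it, -0.40 ± 0.11 (adjusted p = 0.0889). Both passed with the replicate block (0.000397 and 0.0068), under which 8 members were higher and 1 lower, beside 1.33% and 1.45% of all tested genes.

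The proteasome degrades ubiquitin-tagged proteins through a barrel of PSMA and PSMB subunits capped by ATPases (PSMC) and regulators (PSMD). Of its 30 tested subunits 29 had a log2 fold change above 0, as 48.5% of all tested genes had, with a median of 0.20. Only PSMC1 and PSMD11 were called higher (0.153% of all tested genes were), and 8 with the replicate block (1.33%). PSMC1 had 441, 433, 373 and 450 CPM in prexasertib, 252, 333, 282 and 270 CPM in low-dose Dyngo-4a and 376 to 429 CPM in DMSO. The low-dose libraries lay below every library of both other groups, and the difference was 0.58 ± 0.10 (adjusted p = 0.00265). PSMD11 was higher by 0.35 ± 0.08 (adjusted p = 0.0456). It lost its call without any library but low-dose replicate 2 (adjusted p up to 0.185), with no low-count filter (0.0543) and with a filter at 1 CPM in 4 libraries (0.0557). PSMD14, the deubiquitinase of the cap, and PSMD12 had 0.33 and 0.25 (adjusted p = 0.141 and 0.275; 0.00295 and 0.0377 with the block). Outside the list, ADRM1, a ubiquitin receptor of the proteasome, was higher by 0.50 ± 0.10 (adjusted p = 0.00743) and uncalled without prexasertib replicate 2 or low-dose replicate 1 (up to 0.0602). Named after their values were seen, the autophagy receptor SQSTM1 and the unfoldase VCP were higher by 0.49 ± 0.10 (adjusted p = 0.00743) and 0.36 ± 0.08 (adjusted p = 0.0264). SQSTM1 was uncalled without prexasertib replicate 3 (0.0514), and VCP without prexasertib replicate 1, 3 or 4 or low-dose replicate 1, 3 or 4 (up to 0.121) or with no low-count filter (0.0543). Against DMSO the proteasome list had a median of 0.01 in prexasertib and -0.20 in low-dose Dyngo-4a, and the heat shock list 0.05 and -0.22.

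Genes of mitosis lay higher and genes of DNA replication and repair lower in prexasertib than in low-dose Dyngo-4a, with almost no calls among single genes. In a bulk culture, a higher share of cells in mitosis and more of a transcript per cell cannot be told apart. Of 32 mitosis genes 31 had a log2 fold change above 0 (48.5% of all tested genes had), the median was 0.23, and 2 were called higher (0.153%). With the replicate block, 16 were higher (1.33% of all tested genes were) and 0 lower. DESeq2 called 7, and its count over all genes is given in the last section. CDC20, which activates the anaphase-promoting complex, had 59.5, 68.0, 63.4 and 63.1 CPM in prexasertib and 37.8, 44.3, 45.8 and 45.4 CPM in the low-dose group. The difference was 0.55 ± 0.12 (adjusted p = 0.0158), with DMSO at 43.8 to 63.7 CPM. PLK1, the kinase that drives mitotic entry, had 144, 139, 132 and 155 CPM against 99.1, 113, 117 and 110 CPM. It differed by 0.38 ± 0.09 (adjusted p = 0.0383). Neither set of libraries overlapped, but PLK1 lost its call without each of the 8 libraries (adjusted p up to 0.189) and with no low-count filter (0.0521), and CDC20 without prexasertib replicate 2 or 3 or low-dose replicate 1 (up to 0.104). HMMR, a spindle protein, and the kinase AURKA were just short of the threshold at 0.44 ± 0.11 (adjusted p = 0.052) and 0.37 ± 0.09 (adjusted p = 0.0547), and passed with the block (0.00199 and 0.00115). AURKA also passed without low-dose replicate 2 (0.0475). CDCA3, a trigger of mitotic entry that was not on the list, was higher by 0.59 ± 0.12 (adjusted p = 0.01) and uncalled without prexasertib replicate 4 or low-dose replicate 3 (up to 0.0679). The mitosis median against DMSO was 0.11 in prexasertib and -0.12 in low-dose Dyngo-4a.

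Of 34 replication genes 29 lay below 0 with a median of -0.17, and of 23 genes of fork repair and homologous recombination 22 did, with a median of -0.18. Of all tested genes 51.5% lay below 0. None of either list was called, while 0.153% of all tested genes were called higher and 0.262% lower. At an unadjusted p under 0.05, 11 and 6 were lower, as 5.31% of all tested genes were. The replicate block called 3 and 5 lower, as it did 1.45% of all tested genes. DESeq2 called 0 and 1, and its count over all genes is again in the last section. CCNE2, the cyclin E that starts S phase, had 21.0 to 27.2 CPM in prexasertib and 29.6 to 44.2 CPM in low-dose Dyngo-4a (-0.63 ± 0.17, adjusted p = 0.0889; 0.00135 with the block). BRCA1, which protects and repairs stalled forks, had 189, 192, 212 and 172 CPM in prexasertib, 248, 221, 277 and 216 CPM in low-dose Dyngo-4a and 230 to 263 CPM in DMSO. Here the prexasertib libraries were the ones that lay apart from DMSO. The difference between agents was -0.33 ± 0.09 (adjusted p = 0.103; 0.00152 with the block). Among 18 genes of the ATR-CHK1 checkpoint 0 were called (0.153% of all tested genes were called higher and 0.262% lower). Of the 18, 2 had an unadjusted p under 0.05 (9.44% of all tested genes did). The block called CLSPN, the adaptor through which ATR activates CHK1, lower (-0.26 ± 0.09, adjusted p = 0.284, and 0.0197 with the block). Against DMSO the replication median was -0.20 in prexasertib and -0.05 in low-dose Dyngo-4a, and the repair median -0.17 and 0.04.

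**Figure D4:**
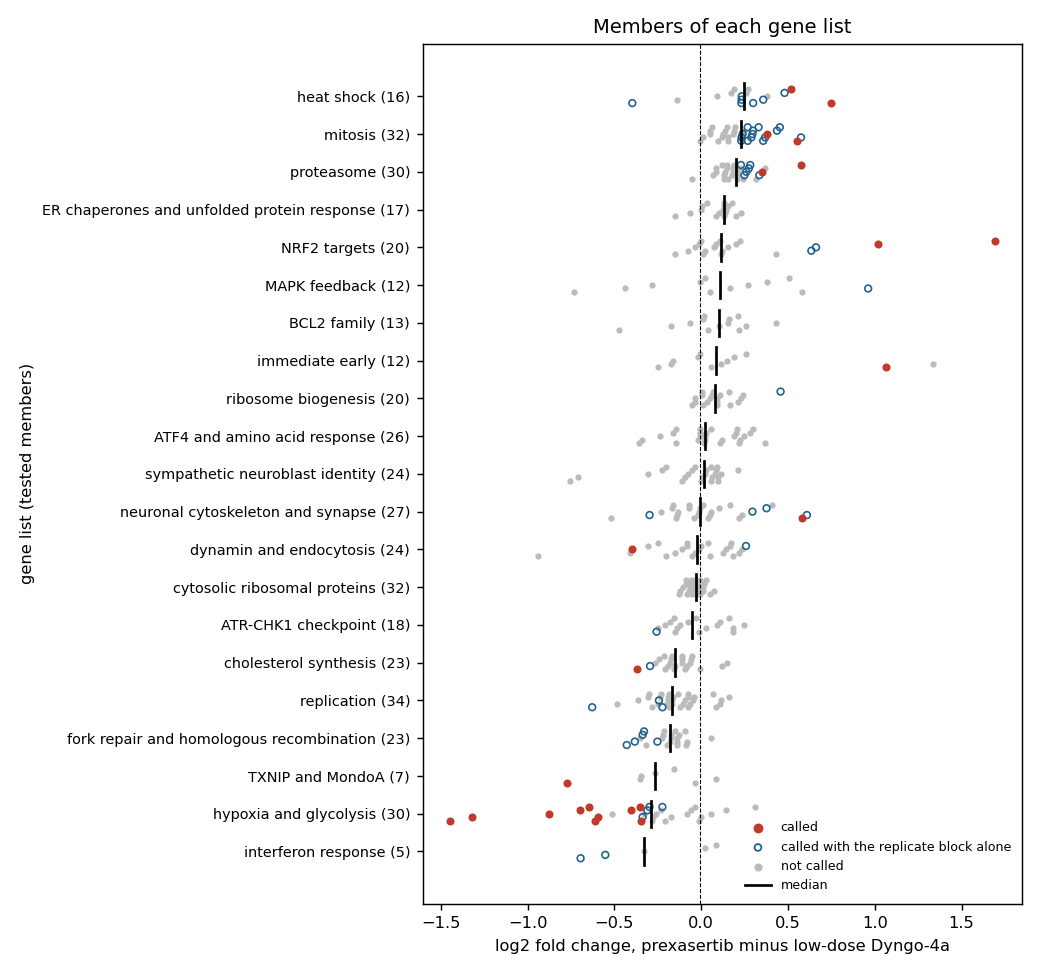
Log2 fold change (prexasertib minus low-dose Dyngo-4a, x axis) of each tested member of 21 gene lists (y axis, with the number tested), ordered by median; filled red points were called, open points were called with the replicate block alone, and the dashed line is the median of all tested genes. Mitosis and proteasome members lie almost all to the right and fork repair members almost all to the left, with few of them called.

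The targets of the agents were measured without being called. CHEK1, the gene of CHK1, had 28.4, 35, 35.1 and 28.1 CPM in prexasertib and 28.9, 37.1, 40.5 and 43.8 CPM in low-dose Dyngo-4a. The groups overlapped, and the difference of -0.25 had a 95% interval of -0.56 to 0.06 (adjusted p = 0.649). DNM2, the ubiquitous dynamin, was at 55.3 ± 4.89 and 53.9 ± 0.451 CPM (SD, n = 4), a difference of 0.04 with an interval of -0.18 to 0.25. The neuronal dynamins DNM1 and DNM3 had -0.31 (-0.70 to 0.09) and -0.21 (-0.76 to 0.35). The sign of DNM1, DNM2, DNM3 and MUS81 differed in at least 1 other setting. MYCN, the amplified driver of the line, averaged 1808 ± 150 CPM and 1732 ± 132 CPM (SD, n = 4), a difference of 0.06 with an interval of -0.12 to 0.25. MUS81 and EME1, the subunits of a nuclease that cuts stalled forks, had 0.06 (-0.17 to 0.28) and -0.14 (-0.45 to 0.18). These agents act on proteins, so the messages do not report on whether the targets were inhibited.

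In the list of dynamin and endocytosis genes, 1 of 24 tested members was called lower, as 0.262% of all tested genes were, and 0 higher. TFRC, the transferrin receptor that dynamin-dependent vesicles bring in with iron, had 151, 144, 140 and 140 CPM in prexasertib and 210, 196, 184 and 168 CPM in low-dose Dyngo-4a, with DMSO at 122 to 152 CPM. The difference was -0.40 ± 0.09 (adjusted p = 0.0237), and the call was lost without any library but low-dose replicate 4 (adjusted p up to 0.155). The clathrin heavy chain CLTC was at 0.26 (adjusted p = 0.203). FDPS, of the mevalonate pathway, was the 1 called member of 23 cholesterol synthesis genes, beside 0.262% of all tested genes called lower. Its log2 fold change was -0.37 ± 0.09 (adjusted p = 0.0445). It was uncalled without any library but prexasertib replicate 4 (up to 0.177), with relative log size factors (0.0517), with no low-count filter (0.0795) and with a filter at 1 CPM in 4 libraries (0.0557). Of the 23, 21 lay below 0, as 51.5% of all tested genes did, with a median of -0.15.

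TXNIP binds thioredoxin, restrains glucose uptake and is a sensitive target of the glucose-sensing factor MondoA. It had 64.5, 63.0, 60.4 and 58.3 CPM in prexasertib and 98.6, 100, 111 and 111 CPM in low-dose Dyngo-4a. The libraries within each group were close together and the groups did not overlap. The difference was -0.77 ± 0.10 (adjusted p = 3.42e-05), with DMSO at 65.8 ± 6.79 CPM (SD, n = 4), the combination at 165 ± 16 and high-dose Dyngo-4a at 545 ± 82.6 CPM. It was the only called gene of its list of 7, while 0.262% of all tested genes were called lower. The arrestin-like genes ARRDC3 and ARRDC4, which share its control by MondoA, had -0.27 (adjusted p = 0.646) and -0.35 (adjusted p = 0.707).

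EGR1, an immediate early transcription factor of growth factor signalling, had the highest prexasertib minus DMSO value of the called genes. It had 9.62, 13.4, 9.11 and 7.99 CPM in prexasertib, 2.81, 4.73, 5.23 and 6.18 CPM in low-dose Dyngo-4a and 2.72 to 5.01 CPM in DMSO. The prexasertib libraries lay above all those of both other groups. It differed from low-dose Dyngo-4a by 1.06 ± 0.25 (adjusted p = 0.0321), a call lost without replicate 1, 2 or 3 of either group (up to 0.216), and from DMSO by 1.35 ± 0.25 (adjusted p = 0.0506; 0.00188 with the block). The combination averaged 21.4 ± 5.69 CPM (SD, n = 4) and high-dose Dyngo-4a 10.9 ± 1.35 CPM, the latter about the level in prexasertib. With limma-voom the call between the agents was lost (0.0928). FOS, another immediate early gene, had 1.34 (adjusted p = 0.37) and JUN 0.06 (adjusted p = 0.945).

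DDB2, a damage sensor of nucleotide excision repair, was lower in prexasertib, at 13.9, 16.4, 12.3 and 16.6 CPM against 27.8, 24.8, 26.1 and 21.6 CPM. The groups did not overlap, which the naming rule required of this gene. The difference was -0.75 ± 0.15 (adjusted p = 0.00743, and 0.0536 without prexasertib replicate 3). CDKN1A, the cell cycle inhibitor p21, had 95.4, 87.8, 79.2 and 104 CPM in prexasertib, 170, 129, 80.2 and 113 CPM in low-dose Dyngo-4a and 37.5 to 67.6 CPM in DMSO. Both treated groups lay above every DMSO library but overlapped with each other, with a difference of -0.42 ± 0.18 (adjusted p = 0.463). Low-dose Dyngo-4a exceeded DMSO by 1.18 ± 0.19 (adjusted p = 0.00566), and prexasertib by 0.76 ± 0.19 (adjusted p = 0.598; 0.0121 with the block). In the combination CDKN1A averaged 425 ± 29.3 CPM (SD, n = 4).

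CHRNA3 and CHRNB4 encode subunits of the ganglionic acetylcholine receptor and neighbour each other on chromosome 15. CHRNA3 had 261, 255, 285 and 309 CPM in prexasertib and 182, 159, 188 and 220 CPM in low-dose Dyngo-4a, a difference of 0.57 ± 0.10 (adjusted p = 0.00224). Its exons overlap those of CHRNA5 on the other strand. CHRNB4 differed by 0.57 ± 0.13 (adjusted p = 0.028) and was uncalled without any 1 of prexasertib replicates 1, 3 and 4 or low-dose replicates 2, 3 and 4 (up to 0.12) or with library sizes alone (0.0549). MAP1A, which binds microtubules in dendrites, had 315, 231, 262 and 249 CPM against 204, 180, 157 and 167 CPM, and 220 to 313 CPM in DMSO. The low-dose libraries were below those of prexasertib and DMSO (0.58 ± 0.11, adjusted p = 0.00404; 0.0503 without prexasertib replicate 1). It was the only called member of 27 cytoskeleton and synapse genes, whose median was -0.01, while 0.153% of all tested genes were called higher. The 24 sympathetic identity genes had a median of 0.01 and 0 calls, while 0.153% of all tested genes were called higher and 0.262% lower. At an unadjusted p under 0.05 they held 1, beside 9.44% of all tested genes. With the block they held 0, beside 1.33% of all tested genes higher and 1.45% lower. In the other direction SYN2, a synaptic vesicle protein gene on none of the lists, named after its values were seen, differed by -0.46 ± 0.11 (adjusted p = 0.0368). It was uncalled without each of the 8 libraries (up to 0.183) and with no low-count filter (0.0608). SEMA5A, an axon guidance semaphorin, had 10.2, 11.2, 10.5 and 6.27 CPM in prexasertib and 18.6, 17.8, 30.7 and 17.1 CPM in low-dose Dyngo-4a. DMSO, at 13.3 to 18.6 CPM, lay above prexasertib and overlapped the low dose, and the difference was -1.14 ± 0.21 (adjusted p = 0.00404).

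ADAMTSL1, a secreted matrix protein, had 9.21, 9.32, 6.54 and 11.0 CPM in prexasertib and 21.8, 19.7, 18.1 and 17.6 CPM in the low-dose libraries. It differed by -1.09 ± 0.19 (adjusted p = 0.00265), and DMSO lay between, at 12.3 to 15.2 CPM. ADAMTS2, a procollagen protease, differed by -0.72 ± 0.14 (adjusted p = 0.00857; 0.0844 without prexasertib replicate 3). The fibroblast list as a whole summed to 57.6 to 69.8 CPM in prexasertib and 69.6 to 81.6 CPM in low-dose Dyngo-4a. Of its 7 genes 3 were tested and 0 called, while 0.153% of all tested genes were called higher and 0.262% lower. At an unadjusted p under 0.05 and with the block 1 was lower, as 5.31% and 1.45% of all tested genes were. The part of the fibroblast list in these genes was not tested. THRB, a thyroid hormone receptor gene named after its values were seen, had 2.25, 2.05, 1.78 and 1.72 CPM against 5.18, 6.31, 5.01 and 6.18 CPM. Its difference was -1.54 ± 0.28 (adjusted p = 0.0036). The naming rule also picked CCDC15, B3GAT2, CT75 and KCNQ5, at -1.07, -1.1, -1.05 and -0.975 (adjusted p = 0.00855, 0.00857, 0.0264 and 0.0169). The histone gene H4C11, on none of the lists, was higher in prexasertib by 1.17 ± 0.26 (adjusted p = 0.0274). All of these rule-picked genes lost their calls in some fits without 1 library (up to 0.0795, 0.0659, 0.128, 0.113 and 0.144).

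The remaining lists had 0 called members: the ATF4 and amino acid response (26 tested), chaperones of the endoplasmic reticulum (17), ribosome biogenesis (20), MAPK feedback (12), the BCL2 family (13) and cytosolic ribosomal proteins (32). The interferon response, with 5 tested genes, had none either, while 0.153% of all tested genes were called higher and 0.262% lower. At an unadjusted p under 0.05 these lists held 2, 1, 2, 2, 1, 0 and 2 genes in that order, beside 9.44% of all tested genes, and DESeq2 and limma-voom called 0 in each. The block called RRP12, a ribosome assembly factor, and ETV5, a MAPK target, higher (0.46 and 0.96 on the log2 scale, adjusted p = 0.0376 and 0.0306 with the block, 0.169 and 0.212 without), and STAT2 and 1 other interferon gene lower.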

How the data were processed

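Counts per gene were deposited for 20 QuantSeq 3′ mRNA libraries of IMR-32 cells (single-end reads, with molecular barcodes, per the labels' protocols). The deposited counts are raw whole numbers for 58787 Ensembl identifiers; all 20 columns were used. Per the submitters' processing notes the authors worked on GRCh38 with limma 3.50.3 and edgeR 3.36.0, after STAR 2.7.2b and FastQC 0.11.7. Not given in the sources used here are the counter, the annotation release, the strand setting and whether barcodes were collapsed.

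Genes were filtered with filterByExpr (minimum count 10, minimum total 15), scaled by TMM and fitted with a term per group over all 20 libraries in edgeR 4.0.16 (two-sided quasi-likelihood F-test, robust fit, 15 residual degrees of freedom) in R 4.3.3. The p-values were adjusted by Benjamini-Hochberg over the 13729 tested genes, with a threshold of 0.05; "called" means past it. The standard error is the size of the log2 fold change over the square root of F, and intervals are 95%. CPM are counts per 1e6 of the TMM-scaled library total. The test was checked on data made with known fold changes. DESeq2 1.42.0 and limma-voom (limma 3.58.1) were alternatives. Within groups Pearson's r across genes was 0.974 to 0.981 and chi-square per degree of freedom 3.07 to 6.58, above 1 for every pair. Replicates 1 and 3 were the closest pair in each group, at 3.07 (prexasertib) and 3.33 (low dose). Each library was counted as its own sample, but a spread above 1 does not show that the libraries came from separate cultures.

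Replicate numbers come from the labels. Deviations from group means of same-numbered libraries correlated at 0.132 to 0.214 (prexasertib and low dose), 0.157 to 0.213 (prexasertib and DMSO) and 0.144 to 0.237 (low dose and DMSO). All exceeded 0.1, so values with the replicate number as a block are given where they change a call. Libraries of different number also reached 0.138, 0.143 and 0.202 in the same comparisons. The best match had the same number in 3, 4 and 3 of 4 libraries, so the pairing by number is not established.

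Named genes were the 12 called genes with the largest log2 fold change in each direction among those with a symbol, a mean log2 CPM of at least 3 and no overlap between the groups, up to 4 members per list that had at least 2 called genes, by smallest p, 1 member of every other list, also by smallest p, and always CDKN1A, MYCN, DNM1, DNM2, DNM3, EME1, MUS81 and CHEK1. For genes picked by size of the difference alone, such as DDB2, the lack of overlap was thus a condition of being named. The members and lists were chosen with earlier results of these data known. Outside the naming rule, uncalled list members such as SLC2A1, GCLC and JUN are given as values, without the checks made on the named genes. One list is not reported here, and the list of mitochondrially encoded mRNAs had no gene in the table used. Coordinates are GENCODE 29 (GRCh38), gene symbols and promoters RefSeq (GRCh38.p14).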

Additional observations from a re-analysis of the deposited data

Results flagged for a closer look

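Among 84 genes, the 57 called and the 27 uncalled ones picked by the naming rule, 168 groups of 4 libraries were screened for a library that lay apart. Its gap to the nearest other, over the group's range, had to exceed Dixon's 95% critical value, a rule that by chance marks about 5% of groups. It marked 6. Of these, 4 were in low-dose Dyngo-4a replicate 3. There GCLM was at 39.6 CPM with the other 3 at 48.1 to 49.9, SEMA5A at 30.7 CPM with the others at 17.1 to 18.6, CCDC15 at 18.5 CPM with the others at 12.1 to 12.4, and MIR22HG at 4.36 CPM with the others at 2.81 to 3. In the prexasertib group HSPH1 was at 659 CPM in replicate 4 (758 to 768 in the others) and BCL2L1 at 23.8 CPM in replicate 3 (27.2 to 27.4 in the others). Without low-dose replicate 3 GCLM and SEMA5A stayed called, and CCDC15 and MIR22HG did not.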

How the results depend on the processing

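All 57 genes called between the agents kept their direction under every setting tried. The count of calls was 60 with library sizes alone, 56 with relative log size factors, 53 with a filter at 1 CPM in 4 libraries, 49 with limma-voom and 46 within replicates 1 and 3. It was 96 with no low-count filter, 109 of the 13729 tested genes with DESeq2 and 87 with only the 2 groups fitted. It was 381 with the replicate block and 189 with a term that splits replicates 1 and 3 from 2 and 4. Within replicates 2 and 4 it was 3 (GCLM, FAM162A and TXNIP). Without 1 library it was 24 to 44. Of the 57 genes, 27 stayed called within replicates 1 and 3, and AK4, PDK1 and THRB were among those that did not. For prexasertib minus DMSO the 0 calls became 12 with no filter, 6 with DESeq2, 2 with only the 2 groups, 23 with the replicate block, 4 with the replicate term, 5 within replicates 1 and 3 and 0 to 2 without 1 library. For low-dose Dyngo-4a minus DMSO the 36 calls became 62 with no filter, 260 with the block, 73 with the replicate term, 4 within replicates 2 and 4 and 14 to 30 without 1 library. The fits within 2 replicates and without 1 library hold fewer samples; for the other settings the cause was not tested. Beyond the calls given above, the block ended none of the 57. Of the 27 uncalled genes picked by the naming rule, 4 changed sign in 5 fits. Other uncalled list members given above, such as SLC2A1 and GCLC, were not checked in this way. Totals of 4491004 to 6537843 counts limit what can be said of genes near 1 CPM, such as SLC16A3.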
